A study of Homo sapiens with 6 samples.

Results

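The genes described here code for host proteins that act at membranes against enveloped viruses. They were chosen by name: 4 members of the interferon-induced transmembrane family (IFITM1, IFITM2, IFITM3 and IFITM10), BST2, CH25H, LY6E, ZMPSTE24, SERINC3 and SERINC5. All 10 were found among the 62710 gene IDs of the expression table. The rule uses no measured value, but the genes were chosen with earlier results of these data known. RNA was sequenced in 6 libraries of HT1080, a human fibrosarcoma line (cells of a connective tissue tumour). Of these, 3 came from cells left without interferon and 3 from cells given human IFNβ at 20 ng/mL for 24 h. The labels and the study's methods for cell culture name human IFNβ for this line, while its methods for sequencing name the mouse protein. No allele, vector or second agent is named for either group. The labels do not say whether the 3 libraries of a group came from separate cultures. The study's methods speak of independent biological replicates for its cell experiments as a whole, without naming the sequencing. The p-values measure the spread between these libraries, which may be technical if they share a culture.

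IFNβ binds its receptor at the cell surface, and the kinases JAK1 and TYK2 then switch on a complex of transcription factors called ISGF3. ISGF3 binds a DNA element called the interferon-stimulated response element and switches on the interferon-stimulated genes. IFITM proteins sit in the plasma membrane and in endosomes and hinder the fusion of viral with cellular membranes. BST2, also called tetherin, holds budding virions at the cell surface, whereas SERINC3 and SERINC5 are carried into retroviral particles and lower their infectivity.

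Levels are given in FPKM, which scale fragments by gene length and library size, as the authors computed them. Whole fragments could be recovered from these values, and the libraries had been divided by between 22848104 and 32915500 fragments. The mesenchymal markers fixed for the line were high, with a summed level of 949 to 1005 FPKM in untreated and 998 to 1033 FPKM in IFNβ libraries, led by VIM and SPARC, while THY1 was near 0. Of the 9 of these 10 markers tested, 6 were higher and 2 lower after IFNβ, against 15.2% and 17.5% of all genes by the rule given below. Of the 6, 1 rose by at least 1 on the log2 scale, as 3.49% of all genes did. Leukocyte and endothelial markers summed to at most 0.448 FPKM in any library. The 5 epithelial markers summed to 46.9 to 47.1 FPKM in untreated and 62.4 to 67.2 FPKM in IFNβ libraries. EPCAM, CDH1 and KRT5 were near 0, and both markers tested, KRT18 and CLDN4, were higher after IFNβ. KRT18 made up nearly all of the sum, with 46.7 ± 0.175 FPKM in untreated and 64.4 ± 2.40 FPKM in IFNβ libraries (SD, n = 3). The part of these shifts in the results below was not tested. In bulk RNA, a change in the share of cells that express a gene and a change in RNA per cell cannot be told apart.

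Of the 10 genes, 5 rose after IFNβ: BST2, IFITM1, IFITM3, LY6E and IFITM2. Their summed level went from between 0.0333% and 0.0363% of all FPKM in the untreated libraries to between 0.433% and 0.440% in the IFNβ libraries. SERINC5 and SERINC3 fell, ZMPSTE24 did not pass the test, and IFITM10 and CH25H were too low to be tested. A gene was tested where its mean over the 6 libraries was at least 0.1 FPKM, and called where limma gave a Benjamini-Hochberg adjusted p under 0.05 over all 20716 genes tested. Among all genes tested, 15.2% were higher and 17.5% lower by this rule, 32.7% in all. The 5 genes that rose also had a log2 fold change of at least 1, the limit used here for a differentially expressed gene (DEG), which 4.22% of all genes passed in either direction and 3.49% in the higher one. In the lower direction 0.739% of all genes passed it, and none of the 10 genes did at the main setting or at any of 16 others. The libraries of both groups did not overlap for all 8 genes tested, as was so for 46.6% of all genes. BST2 passed the limit on low levels only through its IFNβ libraries, so it could be tested only if it differed. The counts of 5 and 8 include BST2, so they describe these genes and are no test against all genes.

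**Figure D1:**
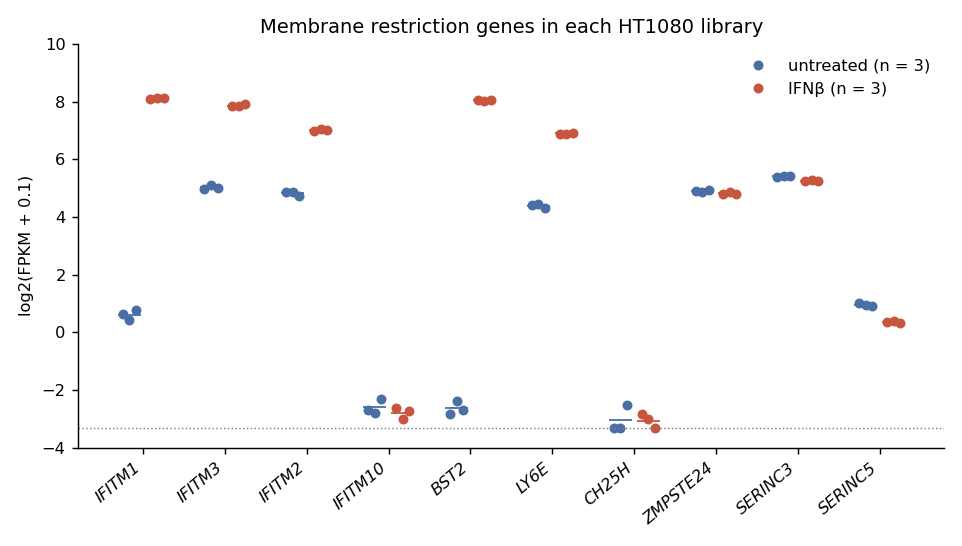
Level of each of the 10 genes in each library, as log2(FPKM + 0.1), with untreated libraries in blue and IFNβ libraries in red, 3 points each, and a bar at their mean. The dotted line marks a gene at 0 FPKM. BST2 and IFITM1 lie below LY6E, IFITM2 and IFITM3 without IFNβ and above them or beside IFITM3 with it, whereas IFITM10 and CH25H stay near the dotted line in all 6 libraries.

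The promoters of the genes were also searched for the response element, with the changes of the genes already known. RefSeq promoters on GRCh38.p14, from 250 bases before to 50 bases after the start site, were at hand for 7 of the 10 genes. IFITM2, IFITM10 and LY6E had no entry. The core of the response element, GAAA followed by 2 bases of any kind and GAAA, was searched on both strands. It occurred in 3 of the 7, IFITM1, IFITM3 and BST2, each at 2 places, and in 3.57% of all 35116 promoters of the set. The windows that hold these matches are shown 5′ to 3′ on the strand of each gene, because these 3 genes are among the strongest risers. Capitals mark the matched letters.
IFITM1, chr11:313990-314019, plus strand, GRCh38.p14: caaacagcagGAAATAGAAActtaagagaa
IFITM1, chr11:314024-314053, plus strand, GRCh38.p14: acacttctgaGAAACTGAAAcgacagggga
IFITM3, chr11:320885-320914, minus strand, GRCh38.p14: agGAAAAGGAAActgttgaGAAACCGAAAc
BST2, chr19:17405738-17405767, minus strand, GRCh38.p14: tttctggGAAACTGAAACTGAAAacctaat

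The matches of IFITM1 lay from -40 to -31 and from -6 to 4 relative to the start site, and those of IFITM3 from -52 to -43 and from -35 to -26. In BST2, the matches from -130 to -121 and from -124 to -115 overlap each other and form a run of 3 GAAA repeats. A site for STAT dimers, TTC followed by 3 bases of any kind and GAA, was found at 1 place in IFITM1, where it overlaps the second match, and at 2 places in BST2, of which 1 overlaps its run. It occurs in 7.66% of all promoters. The promoters of CH25H, ZMPSTE24, SERINC3 and SERINC5 held neither pattern in this window. Among the genes tested that have a RefSeq promoter, 3.02% (348 of 11541) were DEGs in the higher direction, and 18.6% (88 of 472) of those whose promoter holds the core. A match is a description of the letters, and binding was not measured. In GENCODE release 29 the matches of IFITM1 and IFITM3 also lie in exons of alternative transcripts of these genes.

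IFITM1, which acts mainly at the cell surface, went from a low level to one of the highest in the table. The gene (ENSG00000185885) lies at chr11:313506-315272 on the plus strand in GENCODE release 29, as do all positions of genes given here. Its levels were 1.44, 1.23 and 1.59 FPKM without IFNβ and 273, 280 and 279 FPKM with it. All 3 IFNβ libraries stood far above the untreated ones and close to each other. The means were 1.42 ± 0.177 and 277 ± 3.55 FPKM (SD, n = 3), a ratio of 195. The log2 fold change, here and below on the log2(FPKM + 0.1) scale, which understates the change of low genes, was 7.52 (SE 0.08, adjusted p = 2.6e-08). By mean level, IFITM1 moved from rank 10832 to rank 65 of all gene IDs. The untreated levels rest on 55, 61 and 87 fragments, and the IFNβ levels on 11645 to 14023.

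IFITM2 and IFITM3, which act mainly in endosomes, were already well expressed and rose less in ratio. IFITM2 (ENSG00000185201, chr11:307631-315272, plus strand) had 29.1, 29.2 and 26.1 FPKM without IFNβ and 125, 134 and 128 FPKM with it. IFITM3 (ENSG00000142089, chr11:319669-327537, minus strand) had 31.3, 34.3 and 32.2 FPKM without IFNβ and 231, 229 and 239 FPKM with it. For both genes the groups lay apart and the libraries within a group lay close together. The means of IFITM2 were 28.1 ± 1.72 and 129 ± 4.35 FPKM, a ratio of 4.59 and a log2 fold change of 2.20 (SE 0.05, adjusted p = 7.3e-07). The means of IFITM3 were 32.6 ± 1.54 and 233 ± 5.76 FPKM, a ratio of 7.14 and a log2 fold change of 2.83 (SE 0.04, adjusted p = 6.3e-08).

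The make-up of the family's RNA therefore differed between the groups. Without IFNβ, IFITM1 made up 2.34%, 1.91% and 2.65% of the summed FPKM of IFITM1, IFITM2 and IFITM3, and with IFNβ 43.4%, 43.6% and 43.2%. The share of IFITM2 was 47.0%, 45.1% and 43.6% without IFNβ and 19.9%, 20.8% and 19.8% with it. IFITM3 made up 50.6%, 53.0% and 53.8% without IFNβ and 36.6%, 35.6% and 37.0% with it. Thus IFITM1 was a minor part of the family's RNA in untreated cells and had the largest mean share in IFNβ-treated cells at the lengths the authors used. For each of the 3 shares the groups did not overlap, and the exact two-sided permutation test gave p = 0.10, the smallest p that 3 against 3 libraries allow.

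**Figure D2:**
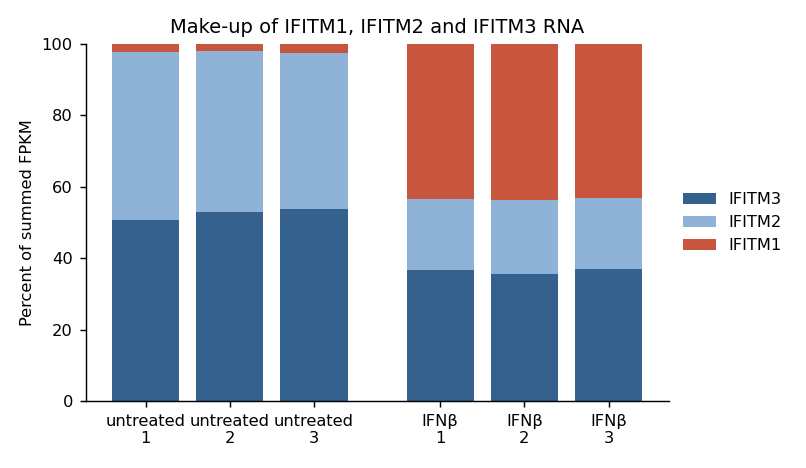
Share of IFITM1, IFITM2 and IFITM3 in their summed FPKM, in percent, as stacked bars for each of the 6 libraries. The red part, IFITM1, covers 1.91% to 2.65% of the bars without IFNβ and 43.2% to 43.6% of those with it.

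The order of these genes depends on the gene lengths used. The values imply a length of 1666 bases for IFITM1, 1606 for IFITM2 and 2844 for IFITM3, against joined exon lengths of 1080, 1543 and 1348 bases in release 29. With the release 29 lengths, IFITM3 had 491 ± 12.2 FPKM in the IFNβ libraries and IFITM1 428 ± 5.47 FPKM (SD, n = 3), so IFITM3 led. The share of IFITM1 then went from 2.20% to 40.6%, that of IFITM2 from 29.2% to 12.8% and that of IFITM3 from 68.6% to 46.6%. In recovered fragments, with no division by length, the share of IFITM1 went from 1.70% to 34.7%. The share of IFITM1 was higher and those of IFITM2 and IFITM3 lower with IFNβ in all 3 ways of counting. IFITM2 has a transcript in release 29 that reaches across IFITM1, and of the 150-base words in the transcripts of IFITM1, 20.7% also occur in IFITM2. Of the words of IFITM3, 10.5% also occur in another gene, AC136475.5. How the authors assigned such fragments is not given in the sources used here. The split between IFITM1 and IFITM2 is therefore uncertain, and so in part is the level of IFITM3.

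The rest of the family was nearly silent. IFITM10 (ENSG00000244242, chr11:1732410-1750591, minus strand), a distant member, had 0.0548, 0.0422 and 0.101 FPKM without IFNβ and 0.0610, 0.0251 and 0.0506 FPKM with it. These levels rest on 6, 6 and 16 fragments and on 9, 3 and 7, and the groups overlapped. With no limit on low levels, its log2 fold change was -0.18 (adjusted p = 0.61). IFITM5, known from bone-forming cells, had no fragment in 4 libraries and at most 2 in the other two. Of 17 genes whose name begins with IFITM, 12 are pseudogenes, and all of these together had 10, 13 and 17 fragments without IFNβ and 24, 14 and 14 with it. None of the 4 family genes tested besides IFITM1, IFITM2 and IFITM3 was called (IFITM3P1, IFITM3P2, IFITM3P3 and IFITM4P).

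LY6E, a protein held in the outer membrane leaflet by a lipid anchor and known to hinder coronavirus fusion, rose by a ratio between those of IFITM2 and IFITM3. The gene (ENSG00000160932) lies at chr8:143017982-143023832 on the plus strand. It had 21.1, 21.5 and 19.5 FPKM without IFNβ and 117, 118 and 121 FPKM with it. The groups lay apart, and the spread within each was small. The means were 20.7 ± 1.06 and 119 ± 2.06 FPKM, a ratio of 5.74 and a log2 fold change of 2.52 (SE 0.04, adjusted p = 1.3e-07).

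BST2 had the largest log2 fold change of the 10 genes. The gene (ENSG00000130303, chr19:17402939-17405648, minus strand) had 0.0398, 0.0918 and 0.0552 FPKM without IFNβ, which are 1, 3 and 2 fragments. With IFNβ it had 264, 261 and 266 FPKM, from 8965, 7183 and 8462 fragments. It was thus at the edge of detection in every untreated library and stood beside IFITM1 in every IFNβ library. In summed fragments per library size the ratio was 4139, with an exact 95% counting interval from 1901 to 11279, which covers counting error only. The log2 fold change was 10.68 (SE 0.11, adjusted p = 2.2e-08), and it was 7.96 with a pseudocount of 1 and 11.90 with one of 0.01, the ends of its range over the 16 other settings. Under the limit on low levels, BST2 could be tested only if it differed. With no such limit, limma gave an adjusted p of 6.1e-08. By mean level, BST2 moved from rank 22248 to rank 71.

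CH25H, the enzyme that makes 25-hydroxycholesterol and is induced by interferon in macrophages, was not detectably expressed at this depth. The gene (ENSG00000138135, chr10:89205629-89207314, minus strand) had 0, 0 and 4 fragments without IFNβ and 2, 1 and 0 with it, or at most 0.0719 FPKM. The groups overlapped. With no limit on low levels its log2 fold change was -0.0019 (adjusted p = 0.997), which these few fragments leave without precision.

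ZMPSTE24, the zinc protease that trims the precursor of lamin A and is known to act together with IFITM proteins, kept nearly the same level. The gene (ENSG00000084073, chr1:40258107-40294184, plus strand) had 29.4, 28.9 and 30.1 FPKM without IFNβ and 27.9, 28.9 and 27.8 FPKM with it. All IFNβ libraries lay below the untreated ones, but the nearest values of the groups are equal when rounded. The means were 29.5 ± 0.625 and 28.2 ± 0.594 FPKM, and the log2 fold change of -0.07 (SE 0.03) did not pass the test (adjusted p = 0.10).

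SERINC5 and SERINC3 went the other way. SERINC5 (ENSG00000164300, chr5:80111651-80256079, minus strand), the family member with the strongest known effect on retroviral particles, had 1.92, 1.81 and 1.76 FPKM without IFNβ and 1.16, 1.21 and 1.14 FPKM with it. It fell by 0.60 on the log2 scale (SE 0.07, adjusted p = 0.0011), from a mean of 1.83 ± 0.0799 to 1.17 ± 0.0351 FPKM, and the groups did not overlap. SERINC3 (ENSG00000132824, chr20:44496221-44522109, minus strand) had 42.2, 42.5 and 42.3 FPKM without IFNβ and 37.7, 38.8 and 37.7 FPKM with it. Its fall was small, 0.15 on the log2 scale (SE 0.02, adjusted p = 0.0012), and larger than the spread between libraries. The levels of SERINC3 stayed far above those of SERINC5 in both groups. SERINC1, another member of the family, rose from 59.8 ± 1.20 to 66.3 ± 1.14 FPKM (log2 fold change 0.15, adjusted p = 0.0033). SERINC2, which went from 20.6 ± 1.39 to 22.3 ± 0.799 FPKM, did not pass the test, and SERINC4 was at 0.

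**Figure D3:**
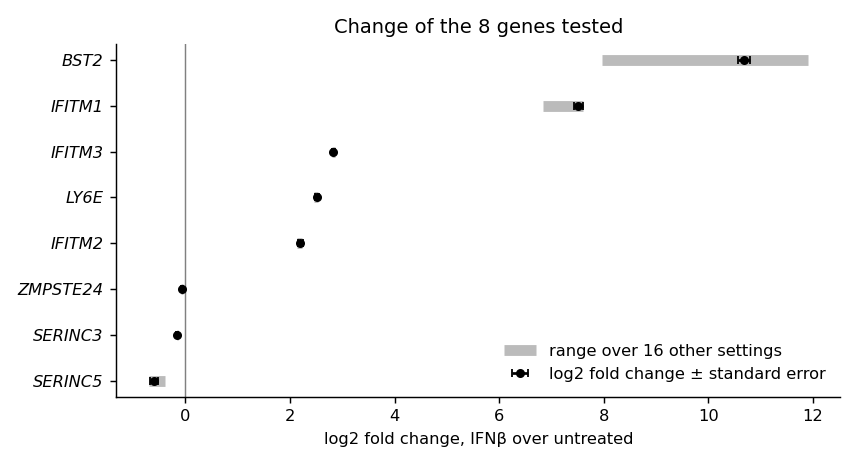
Log2 fold change of IFNβ over untreated libraries for the 8 genes tested, as points with standard errors, with grey bars for the range over 16 other settings. The 5 genes above 2 and the 3 genes between -0.60 and -0.07 are apart. The range is widest for BST2 and IFITM1, followed by SERINC5 (-0.69 to -0.38).

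At the lengths the authors used, in order of level without IFNβ, SERINC3 came first, followed by IFITM3, ZMPSTE24, IFITM2, LY6E, SERINC5, IFITM1, IFITM10, BST2 and CH25H. The libraries of ZMPSTE24 and IFITM2 overlapped, as did those of neighbours among the last 3. With IFNβ the order was IFITM1, BST2, IFITM3, IFITM2, LY6E, SERINC3, ZMPSTE24, SERINC5, IFITM10 and CH25H, and only the last pair overlapped between neighbours. With IFNβ, all 5 genes that rose stood above SERINC3, the highest of the 10 without IFNβ at these lengths. With release 29 lengths the order differed. Without IFNβ, IFITM3 then came before SERINC3 (68.8 ± 3.25 against 42.0 ± 0.146 FPKM), and IFITM1 before SERINC5 by mean (2.19 ± 0.274 against 1.82 ± 0.0796 FPKM), although the libraries of that pair overlapped. With IFNβ, IFITM3 came first, followed by IFITM1 and BST2, which had 260 ± 2.44 FPKM (SD, n = 3 throughout).

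The protein-coding genes tested next to the risers on the chromosome changed less. Within 100 kb of IFITM1, IFITM2, IFITM3, BST2 or LY6E lie 23 other protein-coding genes of release 29, of which 14 could be tested. Of these 14, 5 were higher and 2 were lower, against 15.2% and 17.5% of all genes, and none was a DEG, with log2 fold changes from -0.38 to 0.75. Around the IFITM cluster, PGGHG, which acts on collagen sugars, rose from 2.18 ± 0.193 to 3.74 ± 0.273 FPKM (log2 fold change 0.75, adjusted p = 9.5e-04). PKP3, a protein of desmosomes, rose from 3.22 ± 0.212 to 5.03 ± 0.173 FPKM (0.63, adjusted p = 4.3e-04). PSMD13, a proteasome subunit, fell by 0.12 on the log2 scale (adjusted p = 0.0054). RIC8A, SIRT3, B4GALNT4 and SIGIRR did not pass the test, with log2 fold changes of -0.04, 0.03, -0.13 and -0.38, and NLRP6, IFITM5 and ANO9 were too low to be tested.

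Around BST2, SLC27A1, ANO8 and DDA1 rose by 0.49, 0.33 and 0.08 on the log2 scale (adjusted p = 0.0042, 0.0091 and 0.039), and GTPBP3 fell by 0.20 (adjusted p = 0.027). MVB12A, a subunit of the ESCRT-I complex, starts 74 bases from BST2 on the opposite strand, and its exons cover the response element letters of BST2 shown above. It had 10.5 ± 0.412 FPKM without IFNβ and 11.4 ± 0.526 FPKM with it (log2 fold change 0.10, adjusted p = 0.13). The same stretch lies in an exon of BISPR (ENSG00000282851, chr19:17405686-17419324, plus strand), a long non-coding RNA that was looked up after its position was seen. BISPR had 3, 6 and 2 fragments without IFNβ and 313, 238 and 277 with it (log2 fold change 4.54, adjusted p = 5.8e-06). Like BST2, it passed the limit on low levels only through its IFNβ libraries, so it could be tested only if it differed. In summed fragments the ratio was 76.0, with an exact 95% counting interval from 42.2 to 152.7. BISPR overlaps MVB12A, so the assignment of their shared fragments is uncertain.

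Further from BST2, CCDC194, at a distance of 8781 bases, had no fragment without IFNβ and 28, 12 and 28 fragments with it. Its mean is under the limit for testing, and its mean level with IFNβ was at least 7.29-fold higher than the floor of 3 fragments in each untreated library. ABHD8 and MRPL34 did not pass the test, with log2 fold changes of -0.08 and -0.11, and PLVAP, TMEM221, NXNL1 and a gene with no symbol were too low to be tested. Near LY6E, LY6L was at 0.

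**Figure D4:**
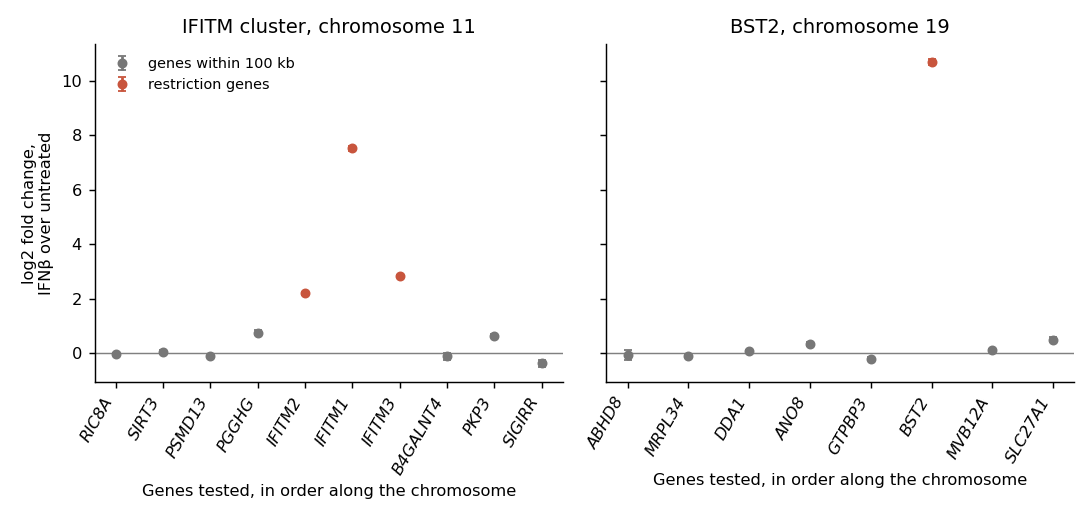
Log2 fold change with standard error of the protein-coding genes tested around the IFITM cluster and around BST2, in their order along the chromosome. The restriction genes in red lie between 2.20 and 10.68, and the grey protein-coding neighbours within 100 kb lie between -0.38 and 0.75. BISPR, a non-coding RNA with a log2 fold change of 4.54, and CCDC194, which was not tested, are not drawn.

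The genes closest to 3 of the risers in level over all 6 libraries, by Euclidean distance in log2(FPKM + 0.1), were other interferon-stimulated genes. Closest to IFITM1 were IFIT1 (distance 1.43), IFIT3 (1.53) and IFI27 (2.91). Closest to IFITM3 was HLA-E (0.964), which went from 27.0 ± 1.42 to 168 ± 2.04 FPKM, followed by IFITM2 (1.53) and IFI16 (1.91). Closest to BST2 were RSAD2 (1.76), OAS2 (3.07) and MX1 (3.79). These distances describe 6 libraries in 2 groups and carry no test.

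Other genes of viral entry, fusion and release were counted from lists of names, which were chosen with earlier results of these data known. Of 15 other entry, fusion and release factors, 13 were tested, and 8 rose, all of them DEGs. Among all genes, 15.2% were higher and 3.49% were DEGs in the higher direction. RSAD2 and GBP5 passed the limit on low levels only through their IFNβ libraries, so they could be tested only if they differed. The median log2 change of the 13 was 1.65, against 0.00017 for all genes. This median and the count of 8 include RSAD2 and GBP5, so they describe the list and are no test against all genes. RSAD2, also called viperin, had 6, 6 and 0 fragments without IFNβ and 25034, 19455 and 23208 with it (log2 fold change 10.13). PLSCR1, a phospholipid scramblase that hinders viral fusion, rose from 15.9 ± 0.0458 to 148 ± 2.87 FPKM (3.21), and the secreted glycoprotein LGALS3BP from 77.4 ± 0.902 to 295 ± 0.654 FPKM (1.93). The guanylate-binding proteins GBP5 and GBP2, which lower the activity of furin, rose by 4.19 and 2.43 on the log2 scale. CD74, NCOA7 and CNP rose by 1.81, 1.65 and 1.61. MARCHF8, a membrane ubiquitin ligase, fell by 0.18 (adjusted p = 0.027).

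Genes that modify or bind IFITM proteins were lower or not called. Of 11 listed and tested, 7 fell, where 17.5% of all genes did, none rose by limma, where 15.2% of all genes did, and none was higher at an unadjusted p under 0.05 or by limma-voom on the recovered fragments. The median log2 fold change was -0.22. ZDHHC20, ZDHHC7 and ZDHHC3, palmitoyltransferases that attach the lipid on which IFITM proteins depend, fell by 0.35, 0.24 and 0.24 on the log2 scale (adjusted p = 2.1e-04, 7.1e-04 and 0.0026). SETD7, a methyltransferase that acts on IFITM3, fell by 0.45 (adjusted p = 1.8e-04), and KDM1A, the demethylase that acts against it, fell by 0.25. The ubiquitin ligases NEDD4 and ITCH, the kinase FYN and the depalmitoylase ABHD16A did not pass the test.

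Of 13 genes of the ESCRT budding machinery, which pinches off viral buds that BST2 can hold back, 7 fell and none rose by limma, with a median log2 fold change of -0.12. VPS37A, a subunit of ESCRT-I, was the only one higher at an unadjusted p under 0.05 (log2 fold change 0.14, adjusted p = 0.055), and limma-voom on the recovered fragments called it (adjusted p = 0.022). VPS4A, an ATPase of this machinery, fell from 12.3 ± 0.222 to 9.26 ± 0.325 FPKM (log2 fold change -0.41, adjusted p = 2.5e-04), and CHMP3, VPS37B and PDCD6IP fell by 0.31, 0.30 and 0.12. TSG101, with a log2 fold change of 0.07, and CHMP4B, with 0.01, did not pass the test. These falls are small, and 17.5% of all genes were lower by the same rule.

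Among the 6 entry proteases tested of 7, 3 rose. By the same rule 15.2% of all genes were higher and 17.5% lower, which also applies to the other lists of this paragraph. CTSL, an endosomal protease that cleaves viral glycoproteins, rose from 21.1 ± 0.688 to 32.9 ± 0.449 FPKM (log2 fold change 0.64, adjusted p = 1.9e-05), and FURIN and CTSB rose by 0.16 and 0.08. TMPRSS2 was too low to be tested. Of the 5 genes of lamin A maturation, the pathway of ZMPSTE24, LMNA and FNTA rose by 0.12 and 0.21, and ICMT fell from 53.2 ± 1.01 to 43.9 ± 0.722 FPKM (log2 fold change -0.28, adjusted p = 2.2e-04). Of 12 genes that handle 25-hydroxycholesterol, 9 were tested. OSBP, SOAT1 and SREBF2 rose by 0.23, 0.12 and 0.10, NR1H2 fell by 0.12, and the median was 0.0029. CYP7B1 and GPR183, an enzyme and a receptor for oxysterols, were too low to be tested.

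In the list of 9 other family members, 5 were tested and 2 rose, SERINC1 and LYPD1, where 15.2% of all genes were higher. LYPD1, of the LY6 domain family, rose from 3.53 ± 0.148 to 5.37 ± 0.165 FPKM (log2 fold change 0.59, adjusted p = 2.1e-04), whereas LY6K, with a log2 fold change of 0.22, did not pass the test (adjusted p = 0.083). Of the genes that carry the interferon signal, STAT2 rose from 3.88 ± 0.0940 to 40.6 ± 0.781 FPKM (log2 fold change 3.35) and IRF9 from 0.136 ± 0.0186 to 1.53 ± 0.195 FPKM (2.79). JAK1 and TYK2 rose by 0.38 and 0.16, the receptor chain IFNAR1 fell by 0.20, and IFNAR2 did not pass the test.

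**Figure D5:**
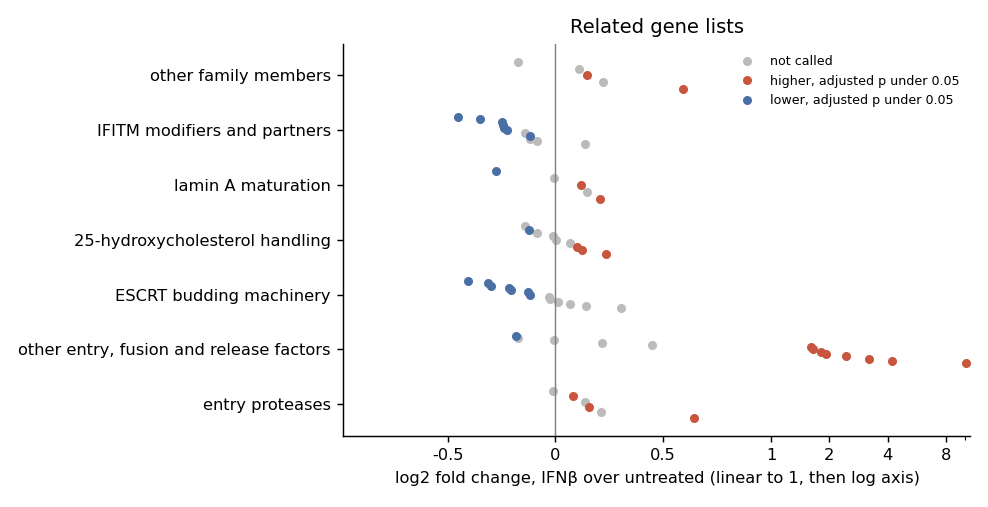
Log2 fold change of each tested gene of 7 related lists, on an axis that is linear to 1 and logarithmic beyond, coloured by whether the gene was higher, lower or not called at an adjusted p under 0.05. The 8 DEGs, all higher, stand to the right and belong to the other entry, fusion and release factors.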

How the data were processed

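RNA of 3 untreated and 3 IFNβ-treated HT1080 samples was sequenced. The deposited values are FPKM, which the authors computed per Ensembl gene and library. The submitters' processing notes name fastp, HISAT2, StringTie and GRCh38, and the study's methods name DESeq2. Versions, annotation, gene lengths and strandedness are not given in the sources used here. Since FPKM are not counts, limma (version 3.58.1, R 4.3.3; lmFit, eBayes with trend) was used on log2(FPKM + 0.1), with no covariate, where the mean of a gene reached 0.1 FPKM. Adjusted p-values are Benjamini-Hochberg values over all genes tested, two-sided. DEGs also had to change by at least 1 on the log2 scale. Other steps used Python 3.11.15 with pandas 2.3.3, numpy 2.4.6 and scipy 1.17.1. The limma step was tested on simulated data. There, no changed gene was as low as BST2 without IFNβ or changed by less than 1 on the log2 scale, so smaller changes were not covered.

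Whole fragments were recovered for 35303 of 35303 genes above 0 (100%, within 0.001 fragments) and made up 99.7% of the number each library had been divided by. A limma-voom fit on these fragments was an alternative. The length in GENCODE release 29 gave whole fragments for 16322 genes, and 4436 IDs are not in that release, so the authors used another annotation. Gene names were paired with 42303 IDs, and positions are from release 29.

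The genes named are all 10 restriction genes, all protein-coding genes within 100 kb of the DEGs among them, and tested IFITM genes. They also include the 3 nearest genes in level to IFITM1, IFITM3 and BST2. Of each list other than the mesenchymal markers, the DEGs and up to 4 others with the smallest adjusted p are named. Genes named besides these, and BISPR, were chosen after their values were seen. The genes and lists were chosen with earlier results of these data known. Shares were compared by exact permutation test. A gene of the interferon signalling list is not reported here.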

Additional observations from a re-analysis of the deposited data

How the results depend on the processing

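Each of the 8 restriction genes tested kept its direction and its side of the threshold under all 16 other settings: pseudocounts of 1 and 0.01, no limit on low levels, a mean of at least 1 FPKM, 3 other scalings, eBayes without trend, the replicate block, each library left out in turn and limma-voom on fragments. Where a mean of at least 1 FPKM was asked, all 8 were still tested. Of the scalings, quantile normalization moved the median over all genes most, to -0.060 (log2). An adjusted p under 0.01 also kept 5 higher and 2 lower. ZMPSTE24 had adjusted p between 0.073 and 0.26. Counts over all genes moved more. DEGs in the higher direction, 722, were 278 with a pseudocount of 1 and 365 with a mean of at least 1 FPKM. DEGs in the lower direction, 153, were 26 and 60 there, and 70 at an adjusted p under 0.01, where the called genes were 2011 higher and 2330 lower against 3153 and 3625. Of the neighbours, 1 (CCDC194) was a DEG with no limit on low levels against 0, and 2 lower became 1 with equal FPKM totals, 0 with eBayes without trend and 1 at an adjusted p under 0.01. With a library left out, between 1 and 2 were lower, and 1 was left without untreated replicate 3, IFNβ replicate 1 or IFNβ replicate 3. The cause was not tested. The difference in the share of IFITM1, 41.1 percentage points, was 33.0 in fragments and 38.4 with release 29 lengths, an alternative chosen after seeing the data. That of IFITM2, -25.0, was -16.6 and -16.4, and that of IFITM3, -16.1, was -22.0 with release 29 lengths. These moves follow from the lengths divided by.

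Whether the replicate numbers pair the samples is not known. The deviations of same-numbered libraries correlated at r = 0.053, -0.018 and 0.12 over 11996 genes, and those of different-numbered libraries at -0.15 to 0.099. With 3 libraries per group these values cannot exclude a pairing. With the replicate block, 5 restriction genes were higher and 2 lower as without it, the neighbours that were lower went from 2 to 3, and DEGs over all genes were 684 higher and 145 lower. BST2 had 1 to 3 fragments per library without IFNβ, and IFITM10 had 3 to 16 and CH25H 0 to 4 over all 6 libraries. Such few fragments limit what can be said about these levels.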
